A study of Sus scrofa with 14 samples.

Results

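Milk interferon-responding granulocyte-like cells were studied in milk of the pig (Sus scrofa). The study followed the mammary gland of multiparous sows from late gestation to involution by single-nucleus sequencing, and sequenced whole cells from milk at 2 stages. Milk L0 was colostrum of lactation day 0, and milk L20 was mature milk of lactation day 20. The methods give the sows a normal diet, and no treatment is named. The labels give no genotype, breed or age. Each stage had 1 library, so the values below have no replicate check, and differences between L0 and L20 are differences between these libraries. The sample labels name the mammary gland as the tissue, and the methods describe the cells as those of fresh milk.

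The cells were selected on measured values. A cell had at least 300 detected genes and at most 25% mitochondrial unique molecular identifiers (UMIs, each counting 1 captured RNA molecule). It had a UMI of at least 3 of 7 genes, namely IFIT1, IFIT2, ISG15, SORL1, TMEM154, STEAP4 and CXCL8, with IFIT1, IFIT2 or ISG15 among them. It had no UMI of MMP8, CLDN4, EPCAM, CD3D or GPNMB, which mark mature neutrophils, epithelial cells, T cells and lipid-handling macrophages. In all, 8515 of 32085 kept milk cells met the rule, 3947 of 17571 at L0 and 4568 of 14514 at L20.

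Type I interferons bind the IFNAR1 and IFNAR2 receptor chains and, through the kinases JAK1 and TYK2, activate transcription factors that bind the interferon-stimulated response element in the promoters of antiviral genes. IFIT1 and IFIT2 bind viral RNA and ISG15 is a ubiquitin-like protein that is conjugated to other proteins. Granulocytes, mostly neutrophils, enter milk from blood and are known for short life, low RNA content and the release of CXCL8, the chemokine that attracts neutrophils. SORL1 is a sorting receptor, STEAP4 a metalloreductase and TMEM154 a membrane protein of blood cells.

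The promoters of the rule genes were read from the reference genome of the same build as the files (Sscrofa11.1, RefSeq gene models), from 250 bases before to 50 bases after each annotated gene start. They are shown 5′ to 3′ on the strand of the gene because IFIT1, IFIT2 and ISG15 carry the choice of the cells, RSAD2 was among the other interferon genes that differed most from the counterparts described below, and CXCL8 was detected in nearly every chosen cell. Capitals mark matches on either strand to the interferon-stimulated response element spelled GAAANNGAA. These windows lie at chr14:101237153-101237452 (IFIT1, plus strand), chr14:101193171-101193470 (IFIT2, plus strand), chr6:63362951-63363250 (ISG15, plus strand), chr3:128897760-128898059 (RSAD2, minus strand) and chr8:69932396-69932695 (CXCL8, plus strand).
IFIT1: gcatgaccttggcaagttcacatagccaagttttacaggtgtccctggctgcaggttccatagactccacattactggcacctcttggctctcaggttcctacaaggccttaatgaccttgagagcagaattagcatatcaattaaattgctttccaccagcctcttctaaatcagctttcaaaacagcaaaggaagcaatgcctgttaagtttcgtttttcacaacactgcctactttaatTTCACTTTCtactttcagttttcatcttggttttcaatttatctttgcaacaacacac
IFIT2: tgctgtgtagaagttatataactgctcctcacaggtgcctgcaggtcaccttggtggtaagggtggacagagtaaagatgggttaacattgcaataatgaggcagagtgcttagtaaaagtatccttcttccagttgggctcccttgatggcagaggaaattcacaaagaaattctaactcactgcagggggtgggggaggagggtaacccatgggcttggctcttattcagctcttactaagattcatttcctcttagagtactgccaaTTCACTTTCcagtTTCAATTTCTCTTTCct
ISG15: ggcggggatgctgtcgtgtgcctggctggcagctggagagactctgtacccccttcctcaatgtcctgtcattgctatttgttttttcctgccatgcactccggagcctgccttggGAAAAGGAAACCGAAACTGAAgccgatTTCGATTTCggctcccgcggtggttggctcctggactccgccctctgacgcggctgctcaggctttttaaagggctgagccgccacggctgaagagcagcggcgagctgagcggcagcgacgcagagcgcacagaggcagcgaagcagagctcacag
RSAD2: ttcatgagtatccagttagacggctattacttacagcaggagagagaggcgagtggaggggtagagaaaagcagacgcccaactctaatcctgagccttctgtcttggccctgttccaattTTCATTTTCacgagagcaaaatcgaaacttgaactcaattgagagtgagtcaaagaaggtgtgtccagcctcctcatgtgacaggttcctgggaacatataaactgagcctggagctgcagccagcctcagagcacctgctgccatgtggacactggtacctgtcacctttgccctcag
CXCL8: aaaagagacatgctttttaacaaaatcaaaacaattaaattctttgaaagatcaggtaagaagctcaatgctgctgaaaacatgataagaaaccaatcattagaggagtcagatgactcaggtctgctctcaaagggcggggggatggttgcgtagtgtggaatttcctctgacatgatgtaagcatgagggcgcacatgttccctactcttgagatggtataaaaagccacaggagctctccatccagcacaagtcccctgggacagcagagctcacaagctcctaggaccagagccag

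The response element spelling was present in the windows of all 3 interferon rule genes and in none of the 4 others. In ISG15 there were 4 matches, of which 3 overlapped one another and began 134, 128 and 122 bases before the start. In IFIT1 the single match began 8 bases before the start, and in IFIT2 the first of 3 matches began 20 bases after it. Of the 50 genes of an interferon-stimulated gene list that had such a window, 21 (42%) held the spelling, against 1551 of 19531 protein-coding genes (7.94%). The kappa-B element spelled GGGANTTTC, searched on both strands, was found in 2 of the 50 (4%) and in 238 of the 19531 (1.22%). No match in CXCL8 says only that these letters were not in this window.

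As a description of the rule, CXCL8 had a UMI in 98.3% of the chosen cells at L0 and 96.3% at L20. TMEM154 had one in 79.8% and 69.8%, SORL1 in 67.4% and 68.6%, and STEAP4 in 65.3% and 65.6%. Among the interferon genes, IFIT1 was found in 71.2% and 64.9% of the cells, IFIT2 in 35.4% and 31.2%, and ISG15 in 48.0% and 72.5%. ISG15 thus had the share that moved most between the libraries, and its level was 1918 counts per 1000000 UMIs of the set (CPM) at L0 and 4160 CPM at L20. In the other kept cells, ISG15 was found in 11.8% at L0 and 17.3% at L20, and CXCL8 in 92% and 83.3%, so that CXCL8 separated the chosen cells little from the rest. Only 1 chosen cell at L0 and 5 at L20 carried none of SORL1, TMEM154, STEAP4 and CXCL8.

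**Figure D1:**
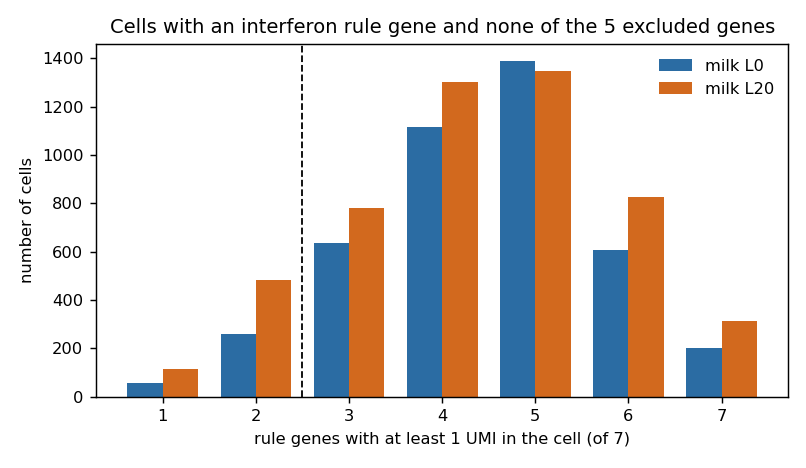
Number of cells (vertical axis) by how many of the 7 rule genes had a UMI (horizontal axis) among kept cells with IFIT1, IFIT2 or ISG15 and none of the 5 excluded genes. The dashed line is the threshold. The largest bars stand at 5 genes, with 1389 cells at L0 and 1348 at L20.

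Just inside the threshold, with exactly 3 rule genes, were 634 cells at L0 and 782 at L20. Just outside it, with 2, were 260 and 483. The cells outside were deeper, with a median of 1445 UMIs against 1114 at L0 and 2268 against 1303 at L20. Their median count summed over the 3 interferon genes was 1 UMI in both libraries, against 1 at L0 and 2 at L20 just inside. All 7 genes were present in 203 and 313 cells. A further 2256 cells at L0 and 1306 at L20 met the requirement for 3 genes but carried an excluded gene, most often MMP8 at L0 (1075 cells) and GPNMB at L20 (773 cells).

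The chosen cells made up 22.5% of kept cells at L0 (exact binomial 95% interval 21.8 to 23.1) and 31.5% at L20 (30.7 to 32.2). The intervals cover counting error only and do not overlap, and with 1 library per stage the difference cannot be set against the spread between sows. The chosen cells were shallow, with a median of 1128 UMIs and 405 genes at L0 and 1118 UMIs and 388 genes at L20, and the deepest held 22157 and 19357 UMIs. Among all kept cells the medians were 1330 and 1285 UMIs. Their median mitochondrial share was 1.09% and 0.872%. When every cell was thinned to 500 UMIs before the rule, 15.7% and 21.8% of the cells met it, so the share depended on depth in both libraries while its order was kept. The 2 libraries shared 284 cell barcodes, of which 17 belonged to chosen cells in both.

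In gland nuclei the same rule found almost nothing. Over 10 glands from gestation day 90 (G90), L0, L20 and days 2 and 7 of involution, 189 of 126833 nuclei met it (0.149%), and the count in 1 gland ranged from 0 to 112. The 112 came from 1 of the 2 G90 glands, where 24.9% of nuclei had a UMI of IFIT1, IFIT2 or ISG15, against 0.862% to 7.96% in the other 9 glands. Without that gland 77 of 108140 nuclei (0.0712%) met the rule. S100A12, which had a UMI in 81.3% and 66.4% of the chosen milk cells, had a UMI in 0 of the 189 nuclei, and CSF3R in 5. For S100A12 a floor of 3 counts over these nuclei equals 1.59%. That value is no exact interval and sets no limit on the share of nuclei that expressed S100A12. Nuclei and whole cells differ in the RNA they hold, so these shares are not those of 1 cell type in 2 tissues.

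The granulocyte label was checked against genes that the rule did not use. The paper lists CSF3R, IL1R2 and MMP8 as monocyte markers and S100A8 as a macrophage marker. It annotates no granulocytes among its milk cells. Whether the chosen cells were granulocytes or monocytes was not tested. CSF3R, the receptor for granulocyte colony-stimulating factor, had a level of 1695 CPM at L0 and 1578 at L20. TREM1, an amplifying receptor of myeloid cells, had 1363 and 940. IL1R2, a decoy receptor for interleukin 1, had 2165 and 415, and C5AR1, the receptor for complement C5a, had 1904 and 1025. S100A12 and S100A8, calcium-binding proteins of neutrophil cytosol, had 11832 and 7057 and 2765 and 2119 CPM. For comparison, CD3D cells, EPCAM or CLDN4 cells and GPNMB cells are kept cells with a UMI of the genes they are called by and none of the other excluded genes. In CD3D cells S100A12 had 969 and 498, in EPCAM or CLDN4 cells 541 and 431, and in GPNMB cells 6242 and 4514. The summed level of the granule list did not set the chosen cells apart, with 16786 and 11276 CPM against 18840 and 12102 in EPCAM or CLDN4 cells, where PGLYRP1, a granule protein that binds peptidoglycan, made up 15937 and 9324.

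With each cell thinned to 500 UMIs, at least 2 of 8 granulocyte markers had a UMI in 85.1% of the chosen cells at L0 and 74.5% at L20. The share was 7.11% and 6.63% in CD3D cells, 20.9% and 10.2% in EPCAM or CLDN4 cells and 48.4% and 45.0% in GPNMB cells. It was 80.3% and 63.0% in the counterparts and 96.2% and 94.4% in the MMP8 cells, both described below. The markers are thus not particular to the chosen cells. Without thinning, the shares were 94.4% and 91.2% in the chosen cells, but also 82.2% and 40.1% in the deeper EPCAM or CLDN4 cells and 78.7% and 87.2% in the GPNMB cells.

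In thinned cells CSF3R was found in 52.7% of chosen cells at L0 and 52.2% at L20. In CD3D cells, which should lack it, it was found in 4.06% and 5.87%, and in EPCAM or CLDN4 cells in 11.7% and 7.49%, so the share in the chosen cells stood above this background. Median depths before thinning were 1128 and 1118 UMIs in chosen cells and 1780 and 1757 in CD3D cells, and without thinning CSF3R was found in 74.3% of chosen cells in both libraries. The genes of early granule formation MPO and ELANE gave 2 and 0 UMIs in chosen cells at L0 and 0 and 3 at L20. CXCR1, CXCR2, FPR1, FPR2 and S100A9 were not analysed here.

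**Figure D2:**
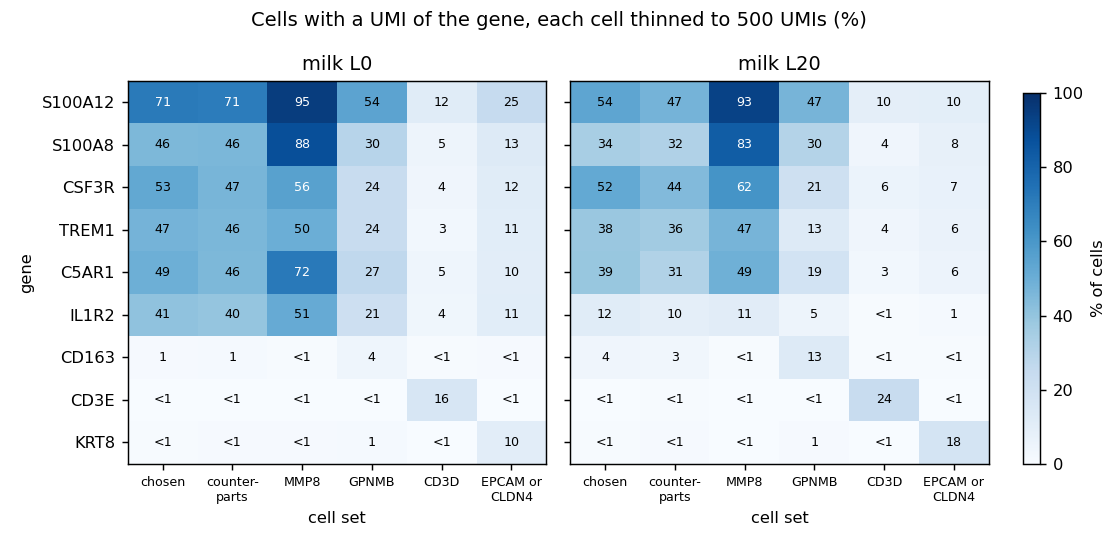
Share of cells (%) with a UMI of each gene after thinning each cell to 500 UMIs, for 6 sets of milk cells at L0 and L20. CSF3R stood at 52.7% and 52.2% in the chosen cells and at 4.06% and 5.87% in CD3D cells, while CD3E and KRT8 were below 1% in the chosen cells.

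Markers of other cell types were low but not absent. The 14 matched macrophage genes summed to 2605 CPM at L0 and 2782 at L20, against 11996 and 20292 in GPNMB cells. CD14, which neutrophils also express, accounted for 1209 and 745 of them, and none of the 14 was at 0. CD163, a scavenger receptor of macrophages, had 71.6 and 336 CPM, and CSF1R 68.4 and 107. At least 2 of 7 macrophage markers were present in 3.07% of chosen cells at L0 and 9.24% at L20, and 1 and 4 of these cells had no granulocyte marker. The 12 T and NK genes summed to 64.5 and 196 CPM, against 4328 and 6465 in CD3D cells, and the 9 epithelial genes to 259 and 81.9 against 3896 and 4316 in EPCAM or CLDN4 cells. The rule barred CD3D, EPCAM, CLDN4 and GPNMB in the chosen cells, and the comparison sets were chosen for carrying these genes. These differences therefore describe in part the choice of the cells and carry no test.

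Transcripts of milk proteins were found in the chosen cells and in CD3D cells as well. CSN2, which encodes beta-casein, had a UMI in 92.5% of thinned chosen cells and 89.3% of thinned CD3D cells at L0, and in 28.8% and 23.2% at L20. Its level was 6033 CPM at L0 and 1197 at L20 in the chosen cells and 4946 and 760 in CD3D cells, against 119891 and 140404 in EPCAM or CLDN4 cells. The source of these UMIs was not tested, and the difference between the stages is not reported as one of the chosen cells' own.

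The question of what accompanied the 3 interferon genes was addressed with counterparts, which are kept cells with at least 2 of SORL1, TMEM154, STEAP4 and CXCL8, none of IFIT1, IFIT2 and ISG15, and none of the 5 excluded genes. There were 5290 counterparts at L0 and 3882 at L20, with median depths of 1072 and 1085 UMIs. Most of the tested interferon-stimulated genes outside the rule were at least 2-fold higher in the chosen cells in both libraries. Of 9469 genes tested (at least 20 UMIs over both sums in each library, rule genes left out), 68 were at least 2-fold higher in the chosen cells in both libraries (0.718%) and 17 lower (0.18%). With each cell given the same weight these counts were 70 and 31, and the balance turned with at least 4 of the 7 genes, to 58 higher and 100 lower. Of the 53 genes of the interferon-stimulated list, 43 had an identifier and 39 passed the minimum, and 28 of these 39 were among the 68 and none among the 17. Over the alternatives tried, none of the list was at least 2-fold lower in both libraries. The median log2 ratio of the 39 was 1.76 at L0 and 1.98 at L20, against -0.15 and 0.07 over all genes tested. Because the cells were selected on genes of the same pathway, these values describe the selected cells and carry no test.

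Among the antiviral effectors, OAS2, which makes the second messenger that activates RNase L, had 674 CPM in chosen cells and 135 in counterparts at L0, and 704 and 167 at L20. This was a ratio of 4.97 at L0 (95% interval 4.63 to 5.35, counting error only) and of 4.21 at L20 (3.93 to 4.52). RSAD2, the radical enzyme viperin, had 27.7 and 2.46 at L0 and 141 and 5.8 at L20, a ratio of 11.3 (6.81 to 19.9) and 24.3 (17.1 to 35.7). MX1, a GTPase that blocks influenza virus, had 36.1 and 5.21 at L0 and 266 and 26.1 at L20, a ratio of 6.93 (4.84 to 10.2) and 10.2 (8.58 to 12.1). Its neighbour MX2 was 5.43-fold and 5.59-fold higher and IFIT5 was 11.9-fold and 13.1-fold higher. EIF2AK2, the RNA-activated kinase PKR, was 3.16-fold and 2.79-fold higher, and SAMD9, which restricts poxviruses, 2.93-fold and 2.61-fold. CMPK2, a nucleotide kinase next to RSAD2 in the genome, was 5.4-fold and 8.87-fold higher. OAS2 had a UMI in 38.5% and 44.4% of the chosen cells and SAMD9 in 63.7% and 66.5%. Others were found in fewer, with RSAD2 in 1.93% and 8.80%, MX1 in 3.12% and 15.8% and MX2 in 1.39% and 5.89%. IFIT5 was found in 2.89% and 5.91% and CMPK2 in 1.22% and 4.14%. At or below the upper quartile of depth (1491 and 1520 UMIs) MX2 was at 7.78 and 31.7 CPM, and above it at 65.0 and 214.

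The enzymes of the ISG15 pathway were higher too. HERC5 and HERC6, ligases of the ISG15 conjugation family, were 4.18-fold and 4.43-fold higher at L0 and 4.09-fold and 3.95-fold higher at L20. UBE2L6, the conjugating enzyme, was 5.28-fold and 4.27-fold higher. USP18, which removes ISG15 and restrains receptor signalling, was 6.43-fold and 7.99-fold higher and had a UMI in 1.75% and 6.87% of the chosen cells. Of the 5 matched genes of the brakes of the pathway, USP18 alone passed 2-fold in both libraries, where 0.718% of all genes were higher and 0.18% lower. USP18 is also on the interferon-stimulated list and was counted there.

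The transcription factors differed among themselves. IRF7, which drives interferon genes, was 3.56-fold higher at L0 and 2.64-fold at L20. IRF1 had a ratio of 1.42 at L0 and 0.93 at L20. The RNA and DNA sensors IFIH1 (2.25-fold and 2.09-fold), DHX58 (3.39-fold and 5.71-fold) and ZBP1 (4.89-fold and 4.97-fold) were higher in both. IFIH1 was found in 30.4% and 41.8% of the chosen cells, DHX58 in 2.79% and 5.25% and ZBP1 in 3.50% and 9.81%. CXCL10, a chemokine of T cells, was 14.5-fold higher at L0 and had a ratio of 0.84 at L20, and it was found in 0.633% and 0.854% of the chosen cells. At L0 it had 125 CPM in the cells above the upper quartile of depth (1491 UMIs) and 1.94 in the others. CXCL9 and CXCL11, ligands of the same receptor, rested on 1 UMI in the counterparts of each library against 109 and 46 UMIs in chosen cells at L0 and 20 and 64 at L20. Few and deep cells held these UMIs, since CXCL9 was found in 0.076% of the chosen cells at L0 and 0.109% at L20 and CXCL11 in 0.0507% and 0.0657%, and at L0 both were at 0 in the cells at or below the upper quartile. STAT2, HELZ2 and RIGI were at or near 0 in these files, with at most 5 UMIs in the chosen cells of a library.

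**Figure D3:**
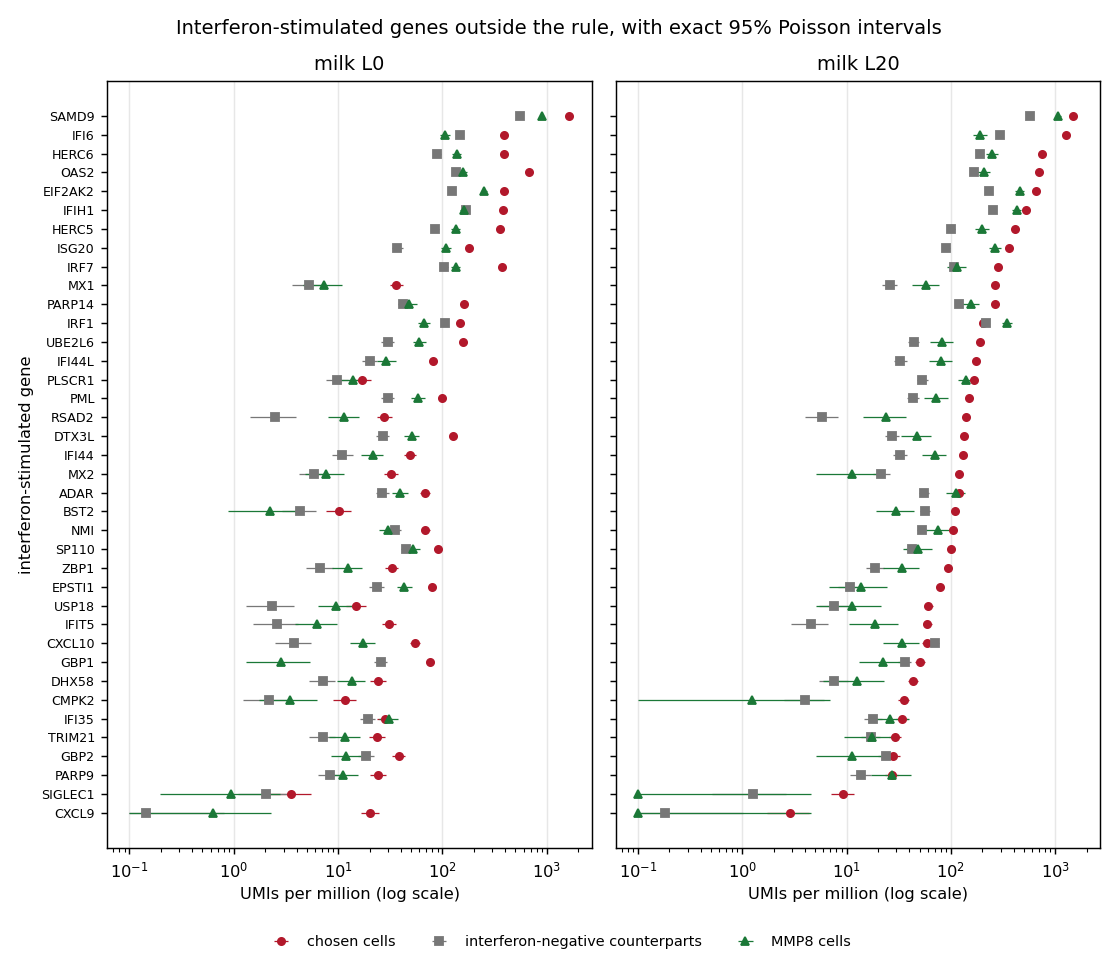
Level of listed interferon-stimulated genes outside the rule (CPM, log axis) in chosen cells, counterparts and MMP8 cells at L0 and L20, with exact 95% Poisson intervals. Values and interval ends under 0.1 are drawn at 0.1. For OAS2 the chosen cells stand at 674 and 704 and the counterparts at 135 and 167.

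Of the 10 genes named for their ratio, ranked by the smaller of the L0 and L20 values, 7 were of that list and the other 3 were CXCL11, which few cells carried, GHSR and HES4. GHSR, the ghrelin receptor gene, had 100 and 13.9 CPM at L0 and 139 and 19 at L20. HES4, a Notch target, rested on 4 and 2 UMIs in the counterparts. Also among the 68, and named after their values were seen, were TRIM22, an antiviral ubiquitin ligase (6.56-fold and 5.15-fold), ZNFX1, a helicase that senses RNA (4.16-fold and 4.13-fold), and SLFN11, a helicase-like restriction factor (5.84-fold and 3.29-fold). HBB, a haemoglobin chain, was 3.19-fold and 2.33-fold higher and was found in 0.785% and 2.98% of the chosen cells. It was at 44.7 and 14.7 CPM in the cells at or below the upper quartile of depth and at 4.80 and 39.0 in the deeper ones. The 17 lower genes were low in both sets: the 10 named ones, CEP250, GPR157, ST8SIA1, GNA12, GNLY, ANKRD13C, HYI, GZMA_2, SLC1A1 and DHCR7, had at most 8.53 CPM in the chosen cells. GNLY, the cytotoxic protein granulysin of T and NK cells, was 0.372 against 2.75 at L0, on 2 UMIs in the chosen cells, and 8.53 against 19 at L20.

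None of the 12 tested genes of the receptor list, 9 genes of the granule list and 12 genes of the oxidase and survival list passed 2-fold in both libraries. The background was 0.718% higher and 0.18% lower, so a count of 0 is near it and is not a result about these genes. CSF3R had a ratio of 1.15 (1.12 to 1.19) at L0 and 1.13 (1.1 to 1.16) at L20. S100A12 had 0.92 (0.91 to 0.93) and 0.90 (0.89 to 0.91). Of the class I and class II presentation genes none of 9 passed 2-fold, which is near the same background. B2M, the light chain of class I molecules, had a ratio of 1.25 and 1.22, and PSMB8, a subunit of the immunoproteasome, 1.71 and 1.58.

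The chosen cells differed among themselves in how far the other interferon genes were present. With each cell thinned to 500 UMIs, the summed level of the listed interferon genes outside the rule was 4890 CPM at L0 in the 2313 cells with 1 of IFIT1, IFIT2 and ISG15. It was 9425 in the 1114 cells with 2 and 14277 in the 520 cells with all 3, and the counterparts had 2456. At L20 the levels were 7133 in 2254 cells, 13060 in 1491 and 22015 in 823, with 3902 in the counterparts. The cells were divided by genes of the same pathway that the rule used, so this order is a description. The median depths before thinning lay between 1072 and 1214 UMIs. At least 3 of the other interferon genes were found in 74.8% of cells with all 3 rule genes at L0 and 91.6% at L20, against 9.68% and 19.8% of counterparts.

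**Figure D4:**
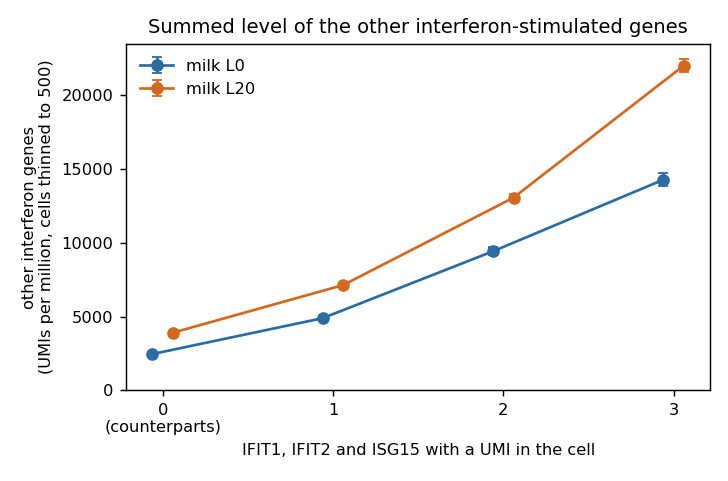
Summed level of the interferon-stimulated genes outside the rule (CPM, vertical axis) in cells thinned to 500 UMIs, by how many of IFIT1, IFIT2 and ISG15 had a UMI. Bars are exact 95% Poisson intervals, and the level runs from 2456 in counterparts to 14277 at L0 and from 3902 to 22015 at L20.

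By the number of the other 4 rule genes in a cell the level had no common order in the libraries. At L0 it was 9929 CPM in the 84 cells with 1 of SORL1, TMEM154, STEAP4 and CXCL8, 7489 with 2, 7277 with 3 and 7344 with 4. At L20 it was 14107 in the 150 cells with 1, and 9923, 12016 and 12528 with 2, 3 and 4. By the rule, cells with 1 of these genes carried at least 2 of the interferon genes. By depth, the deepest quartile of the chosen cells, with a median of 1938 UMIs at L0 and 2138 at L20, had 5902 and 7468 CPM of the listed interferon genes in unthinned counts, against 7904 and 13417 in the shallowest quartile. The rule required a UMI of IFIT1, IFIT2 or ISG15 at every depth, and its part in this difference was not tested.

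Transcripts of the interferon receptors were present, and those of the measured ligands were at or near 0. Genes of interferon alpha, omega and lambda were not on the list and are not reported here. IFNB1 and IFNK were at 0 in the chosen cells of both libraries, with a floor of 3 UMIs equal to 0.558 CPM at L0 and 0.427 at L20. IFNG, the type II interferon of lymphocytes, had 0.744 and 1.42 CPM, or 4 and 10 UMIs. The receptor chains IFNAR1 and IFNAR2 had 275 and 231 CPM at L0 and 289 and 287 at L20. IFNGR1 and IFNGR2 had 708 and 441 at L0 and 461 and 312 at L20, and IFNLR1, the type III receptor chain, had 0.930 and 0.142. JAK1 had 327 and 407 and TYK2 88.7 and 55.9. None of the 8 tested genes of this group passed 2-fold against the counterparts in both libraries, where 0.718% of all genes were higher and 0.18% lower, so the count is near the background. Of 10 tested sensors and adaptors CGAS passed, with 4.09 against 1.3 CPM at L0 and 8.25 against 2.54 at L20.

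The MMP8 cells had a UMI of MMP8 and none of the other 4 excluded genes (1935 at L0 and 572 at L20). Against them, the chosen cells had lower levels of most tested genes of the granule list. That list also holds S100A8 and S100A12, described above as proteins of neutrophil cytosol. MMP8 is itself a granule gene of neutrophils and was required in one set and barred in the other, so these values are a description of the choice of the cells. The MMP8 cells were also deeper, with a median of 1452 UMIs at L0 and 1250 at L20 against 1128 and 1118. Of 7554 genes tested, 546 were at least 2-fold higher in the chosen cells in both libraries (7.23%) and 124 lower (1.64%). With each cell given the same weight the counts were 334 and 152. Among the 124 were 6 of the 9 tested genes of the granule list, namely MMP25, MMP9, PADI4, S100A12, S100A8 and SERPINB1. The granule gene ARG1, arginase, was higher in the chosen cells, with 525 against 193 CPM at L0 and 1683 against 365 at L20. It was found in 12.2% and 28.1% of the chosen cells. In those at or below the upper quartile of depth ARG1 was at 186 and 617 CPM, and in the deeper ones at 981 and 2798. S100A8 had 2765 against 11776 CPM at L0 and 2119 against 11667 at L20. S100A12 had 11832 against 45896 and 7057 against 37498. MMP9, the gelatinase of neutrophil granules, had 60.6 against 403 and 22.3 against 121, and SERPINB1, an inhibitor of neutrophil elastase, 397 against 1527 and 144 against 632. CSTA, a cysteine protease inhibitor, was the most different of the lower genes, with 14.1 against 172 and 4.41 against 82.2.

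The genes of the granulocyte receptor list differed less than the genes of the granule list by the median log2 ratio. It was -0.24 at L0 and -0.50 at L20 for the receptor list, and -1.42 and -2.13 for the granule list. CSF3R was 1695 against 1762 CPM at L0 and 1578 against 2418 at L20, and TREM1 1363 against 1414 and 940 against 1330. Of the 12 tested genes of the receptor list only AQP9, a channel and not a receptor, passed 2-fold in both. It was at 0 in the MMP8 cells of L20. AQP9 was found in 0.431% and 1.40% of the chosen cells. Over all genes tested 7.23% were higher and 1.64% lower, so this count is near the background and is not a result about the receptor list. Of the interferon-stimulated list, 38 genes passed the minimum, and 18 of them were at least 2-fold higher in the chosen cells in both libraries and none 2-fold lower in both. The median log2 ratio of the 38 was 1.3 at L0 and 1.14 at L20, against 0.18 and 0.51 over all genes tested. OAS2 was 4.26-fold and 3.43-fold higher, and IFI6 3.67-fold and 6.72-fold. The rule asked the chosen cells, but not the MMP8 cells, for IFIT1, IFIT2 or ISG15. These interferon values therefore describe the choice of the cells and carry no test. Of 8 presentation genes 4 were higher, all of class II, with CD74, the invariant chain, at 934 against 366 and 1347 against 256, and SLA-DMB at 27.3 against 4.73 and 38.8 against 3.74. The deepest chosen cells held most of this. In those at or below the upper quartile of depth CD74 was at 139 and 157, and in the deeper ones at 2006 and 2594. SLA-DMB was at 1.94 and 2.78 in the former and at 61.5 and 76.5 in the latter. Of 13 macrophage genes 7 were higher, among them CD163 (71.6 against 29.3 and 336 against 23.7). Macrophage markers thus moved with this comparison. In the chosen cells with fewer than 2 of 7 macrophage markers CD74 was at 551 and 616 and SLA-DMB at 8.85 and 13.6. The part of the macrophage markers in the presentation genes was not tested.

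Between the stages, 1554 of 10498 genes tested in the chosen cells were at least 2-fold higher at L20 (14.8%) and 1441 lower (13.7%), where the minimum was 20 UMIs over both sums. The median log2 ratio of L20 to L0 over all of them was 0.14. Of the genes past 2-fold 51.9% were higher at L20, against 40.6% under median ratio scaling, which moved the median to -0.03, and 39.5% when each cell was given the same weight. With a filter from 500 genes upwards and a mitochondrial share of up to 10% the share was 67.4%. Of the 39 tested interferon-stimulated genes 12 were higher and 1, CXCL9, was lower, with a median log2 ratio of 0.61. BST2, which tethers virus particles to the cell, was at 10.2 and 109 CPM, a ratio of 10.7 (8.12 to 14.3). It was found in 0.988% and 7.75% of the chosen cells. In those at or below the upper quartile of depth BST2 was at 3.89 and 31.4 CPM, and in the deeper ones at 18.8 and 191. PLSCR1 was at 16.9 and 166 and MX1 at 36.1 and 266, a ratio of 9.81 and 7.36. RSAD2 was at 27.7 and 141, USP18 at 14.9 and 60.9, MX2 at 32.2 and 121 and IFI6 at 389 and 1281. Over the alternatives tried, between 11 and 17 genes of the list were higher, and CXCL9 turned to a log2 ratio of 0.20 in thinned cells. Others of the same response were level, with OAS2 at 674 and 704, SAMD9 at 1633 and 1480 and IRF7 at 372 and 280.

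Some of these stage differences were also present outside the chosen cells. MX1 was 5.02-fold higher at L20 in the counterparts and 7.90-fold in the MMP8 cells. BST2 was 13.0-fold and 13.5-fold higher there. RSAD2 was 5.08-fold higher in the chosen cells, 2.36-fold in the counterparts and 2.08-fold in the MMP8 cells. IFI6 was 3.29-fold, 2.03-fold and 1.80-fold higher. These sets come from the same libraries, and no difference between the ratios was tested.

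**Figure D5:**
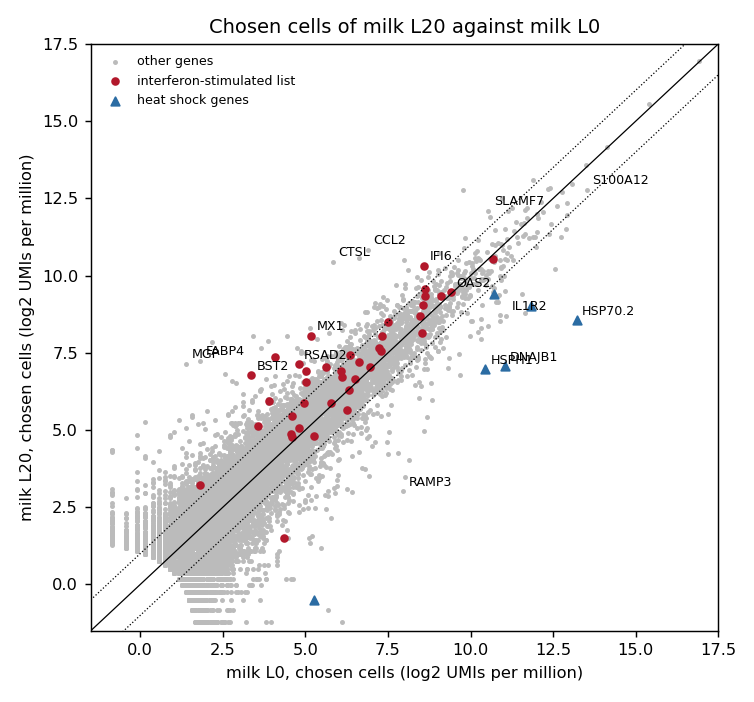
Level of each tested gene in the chosen cells of L20 (vertical axis) against L0 (horizontal axis), in log2 CPM with counts under 3 set to 3. The solid line is equality and the dotted lines are 2-fold. BST2 and MX1 lie above the upper dotted line, OAS2 lies on the line of equality, and the heat shock genes lie below.

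Heat shock genes were much lower at L20. HSP70.2, an inducible HSP70 chaperone, was at 9494 and 374 CPM, a ratio of 0.039 (0.038 to 0.041). Its partner DNAJB1 was at 2096 and 133, HSP90AA1 at 3650 and 521, HSPH1 at 1386 and 125, and HSPA1L at 38.1 and 0.711. The same genes were lower at L20 in the counterparts and the MMP8 cells, where the ratio of HSP70.2 was 0.092 and 0.075. Of 10 tested genes of the stress and immediate early list 5 were lower at L20 and 1, FOSB, was higher. Over all genes tested 13.7% were lower and 14.8% higher. FOS and EGR1, immediate early factors, were at 4122 and 4044 and at 857 and 756.

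Several granulocyte genes were also lower at L20. PGLYRP1 was at 816 and 109 CPM and LTF, lactoferrin, at 185 and 30.4, and both were higher in EPCAM or CLDN4 cells, where LTF had 2134 and 2038. In CD3D cells PGLYRP1 was at 621 and 54.0. CEBPD, a factor of granulocyte genes, was at 454 and 63.0, ALOX5AP, which serves leukotriene synthesis, at 2995 and 685, and IL1R2 at 2165 and 415. CSF3R with a ratio of 0.931 and S100A8 with 0.766 stayed within 2-fold. ARG1 was higher at L20 at 1683 against 525, and SOD2, the mitochondrial superoxide dismutase, at 2387 against 905. In the cells at or below the upper quartile of depth ARG1 was at 617 against 186, and in the deeper ones at 2798 against 981.

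Of 21 tested genes of the inflammatory cytokine list 10 were at least 2-fold higher at L20 and none was 2-fold lower. The list also holds genes that encode no cytokine, and TNFAIP3 of these was among the 10. Over all genes tested 14.8% were higher and 13.7% lower. In the cells at or below the upper quartile of depth VEGFA was at 5.83 and 7.23 CPM and CCL22 at 0.972 and 0.556. In the deeper cells VEGFA was at 19.6 and 92.8 and CCL22 at 1.31 and 34.6. IL1A had 151 and 571 in the shallower cells, and OSM 27.2 and 150. IL1A had 152 and 536 CPM, OSM, an interleukin 6 family cytokine, 22.5 and 107, and TNF 34.2 and 78.1. The chemokine CCL4 was at 2258 and 4330. The neutrophil attractant CXCL2 was at 6300 and 4855. Of the activation genes, SLAMF7, a receptor of activated leukocytes, was at 1488 and 4410 and ICAM1 at 157 and 447. In the counterparts SLAMF7 was at 1395 and 6844.

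Markers of other cell types differed between the stages as well, where 14.8% of all genes tested were higher at L20 and 13.7% lower. Of 11 tested T and NK genes 9 were at least 2-fold higher at L20 and none lower, at low levels, with IL7R, the interleukin 7 receptor, at 2.98 and 44.8 CPM and CD2 at 2.60 and 17. Of 14 macrophage genes 7 were higher, among them CD68 at 118 and 453, and 3 were lower, with the complement gene C1QA at 76.4 and 8.53. The direction of C1QA turned without the cells above the upper quartile of UMIs (a log2 ratio of L20 to L0 of 0.89) and without the cells with 2 or more macrophage markers (0.27). Of 9 epithelial genes 6 were lower. The part of these cells in the stage differences was not tested.

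Most of the genes with the largest ratio of L20 to L0 had higher levels in the deepest cells, and several of them differed between the stages in the shallower cells too. In the chosen cells above 1491 UMIs at L0 and 1520 at L20, the upper quartiles, CCL2, a monocyte attractant, had 268 and 3646 CPM, and in the cells at or below them 7.78 and 93.7. CTSL, a lysosomal protease, had 127 and 2748 in the deeper cells and 4.54 and 102 in the others. MS4A7, a membrane protein of macrophages, had 23.6 and 519 against 0.972 and 21.1, and CD163 had 151 and 660 against 13.0 and 27.5. FCER1A, the IgE receptor chain, had 0 and 39.3 against 0 and 0.834, and CSF3 4.80 and 80.0 against 0.324 and 1.95. CD300C, SMPDL3A and FPGS had the same order. FABP4, a fatty acid carrier, was at 3.49 and 174 in the deeper cells and 3.56 and 131 in the others, and was found in 11.4% of the chosen cells at L20. MGP, matrix Gla protein, had 3.49 and 239 against 1.94 and 49.2. ASTL was higher in the shallower cells of L20, with 42.8 against 13.7.

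MX1 and HSP70.2 likewise differed between the stages in the shallower cells. MX1 had 25.6 and 226 CPM in the cells at or below the upper quartile, and HSP70.2 had 9506 and 58.4. OAS2 had 808 and 1000 there, and 493 and 393 in the deeper cells. In the cells with fewer than 2 macrophage markers, MX1 was at 31.6 and 218. SIGLEC1, a macrophage lectin of the interferon list, had 0.324 and 0.278 in the shallower cells and 7.86 and 18.6 in the deeper ones. Of the named genes with the smallest ratio, RAMP3, an accessory protein of the calcitonin receptor family, was at 250.1 and 9.17 in the shallower cells and 248.8 and 6.98 in the deeper ones. The milk protein gene CSN2 also differed little by depth, with 6084 and 1200 in the shallower cells and 5964 and 1193 in the deeper ones. As for CSN2, the source of the RAMP3 UMIs was not tested. HS3ST3A1, a heparan sulfate sulfotransferase, was at 69.6 CPM at L0 and rested on 2 UMIs at L20, as did MPZL3. H1-3, a linker histone, was at 384 and 31.3, with 71.3 and 806 in the shallower and deeper cells of L0. Over all chosen cells SLC6A14, SNX22 and FGFBP1 had at most 35.0 CPM at L0 and at most 2.56 at L20. In the shallower and deeper cells of L0 SLC6A14 was at 23.0 and 18.8, SNX22 at 12.6 and 11.8 and FGFBP1 at 36.3 and 33.2. The source of their UMIs was not tested either.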

How the data were processed

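The milk cells were sequenced with a GEXSCOPE single-cell kit, and the authors processed the reads with CeleScope on the Sscrofa11.1 assembly. No source used here names the annotation release. The deposited files hold raw UMI counts per gene and cell, with no normalization. The milk libraries held 84971814 (L0) and 46923887 (L20) UMIs in 22257 and 18733 barcodes. Cells were kept from 300 detected genes upwards and up to a mitochondrial share of 25%, over 13 genes. No doublet caller was run. The rule's excluded genes and an alternative without the deepest 5% of cells do not replace one, since a doublet may carry none of those genes. The share of doublets among the chosen cells was not tested.

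Levels are UMIs summed over the cells of a set and divided by their total and scaled to 1000000 (CPM), with exact Poisson intervals. Shares have exact Clopper-Pearson intervals. Ratios have exact conditional intervals. All are at 95% and cover counting error only. A gene was counted as differing past 2-fold with at least 20 UMIs, and a count under the floor of 3 UMIs was set to 3 before a ratio was formed. No p-value was computed, since each stage had 1 library. The 32085 kept cells were thinned to 500 UMIs without replacement where shares were compared, and none was too shallow. The fold counting was tested on simulated data. Symbols came from the files (column 2), or from the reference tables for a further 628 identifiers. The genes named in the text are those of the rule, members of the lists by role, and for each comparison the 10 with a symbol and the largest change each way. For the stages these had at least 50 UMIs and 1 direction under every scaling. The members and lists were chosen with earlier results of these data known. Promoters came from RefSeq models of Sscrofa11.1. Alternatives changed the cell filter, rule, scaling, minimum and depth. Tissue sections were not used, and some listed genes and promoters are not reported here. The computation used Python, numpy and scipy.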

Additional observations from a re-analysis of the deposited data

How the results depend on the processing

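No paired analysis was possible because each milk stage had 1 library and no result came from a test, and no library could be left out for the same reason. Alternatives that left out the deepest 5% of cells, cells above the upper quartile of UMIs, or cells with 2 or more macrophage markers were added to the gene counts after the data were seen. The share of chosen cells was higher at L20 than at L0 under every alternative tried. It was 13.1% at L0 and 18.4% at L20 with a filter from 500 genes upwards and a mitochondrial share of up to 10%, 23.9% and 34.8% with at least 2 of the 7 genes, 18.9% and 26.1% with at least 4, 25.6% and 34.3% with up to 1 UMI of the excluded genes, 15.7% and 21.8% in thinned cells, and 23.6% and 33.0% without the deepest 5%.

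The number of genes past 2-fold between the stages, 2995, was 1546 in thinned cells, 4918 with no minimum of UMIs and 1795 with at least 50. Against the counterparts, 85 (68 higher and 17 lower) became 195 with no minimum (98 and 97) and 158 with at least 4 of the 7 genes (58 and 100), and with the stricter cell filter 47 were higher and 57 lower, so the balance turned in the last 2. Against the MMP8 cells, 670 became 308 in thinned cells, 401 with at least 4 genes, 399 without cells above the upper quartile and 444 without cells with macrophage markers. The share of the stage genes that were higher at L20, 51.9%, was 36.0% without cells above the upper quartile, 37.0% without cells with macrophage markers, 38.2% with no minimum, 65.3% with at least 50 UMIs and 67.4% with the stricter cell filter. The cause of these differences was not tested.

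Of the 44 named or listed genes past 2-fold against the counterparts, none changed direction in the alternatives that gave it a value. Between the stages, log2 ratios changed sign without cells above the upper quartile for C1QA (0.89), C1QC (1.22), MRC1 (-0.81), MS4A2 (-1.22) and PECAM1 (-0.014), without cells with macrophage markers for C1QA (0.27), C1QC (0.13) and SIGLEC1 (-0.97), in thinned cells for CXCL9 (0.20), and with equal weight per cell for TLR3 (-0.81). Against the MMP8 cells they did so in at least 1 library without cells with macrophage markers for C1QC (-0.85) and MERTK (-0.15), without cells above the upper quartile for CD83 (-0.29) and MSR1 (-0.91), in thinned cells for CD83 (-0.10) and VEGFA (-0.028), with the stricter cell filter for HERC5 (-0.075), with equal weight for PLA2G2D (-0.24), and with at least 4 genes for SLA-DQB1 (-0.049). Depth limits low genes, since 3 UMIs equal 0.558 CPM at L0 and 0.427 at L20.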
